A study of Mus musculus with 8 samples.

Results

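The IFIT genes encode interferon-induced proteins with tetratricopeptide repeats, and 5 of them were examined here among the 22322 genes of the deposited table: Ifit1, Ifit2, Ifit3, Ifit3b and Ifit1bl1. They were taken by gene symbol, and the family was picked because Ifit3 and Ifit3b were higher in Ad-Cre samples while other interferon genes were lower. The members were thus selected on their counts in Ad-Cre against Ad-GFP samples, and the fit over all genes on that same contrast is given for them as a description, with no p-value and as no test of them. RNA sequencing had been done on 8 samples labelled as primary fibroblasts of mouse kidney. The 4 Ad-Cre samples were infected with an adenovirus carrying Cre recombinase and are labelled as a knockdown of Suv39h1, which encodes a histone H3 lysine 9 methyltransferase. The 4 Ad-GFP samples were infected with an adenovirus carrying green fluorescent protein and are labelled wild type. Both groups carry an adenovirus and both had TGF-β, an inducer of the myofibroblast state, at 5 ng/ml for 48 h, so neither is an uninfected or resting culture. The labels name no floxed allele, mouse strain or age, and they do not say whether replicates came from separate cultures, so a p-value here speaks only of the spread between libraries, and that spread may be technical.

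In most cells IFIT genes are nearly silent until interferon reaches its receptor. Receptor-bound JAK kinases then activate transcription factors that bind the interferon-stimulated response element in promoters, and a virus-activated IRF3 can bind the same kind of element without interferon. IFIT proteins bind foreign or unusual RNA in the cytoplasm and restrain its translation. Mouse Ifit1 recognises capped RNA that lacks the methyl group of host messages, human IFIT2 binds AU-rich RNA, and in human cells IFIT3 joins IFIT1 and IFIT2 and strengthens the hold of IFIT1 on RNA. Ifit3b and Ifit1bl1 are mouse copies, near-identical to Ifit3 in the one case and more distant from Ifit1 in the other.

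The 5 genes lie together on mouse chromosome 19 in GRCm38, with a sixth, Ifit1bl2, between them, over 99.3 kb. In order along the chromosome these are Ifit2 (chr19:34550694-34576419, plus strand), Ifit3 (chr19:34583531-34588731, plus), Ifit1bl1 (chr19:34592891-34601956, minus), Ifit3b (chr19:34607970-34613401, plus), Ifit1bl2 (chr19:34617049-34640743, minus) and Ifit1 (chr19:34640871-34650009, plus). All are annotated as protein coding, and no exon of theirs overlaps an exon of another gene. The promoters were searched for the core of the interferon-stimulated response element, which is GAAA, any 2 bases and GAAA on one strand and reads TTTC, any 2 bases and TTTC on the other, in RefSeq windows (GRCm38.p6) that run from 250 bases before to 50 bases after each gene's start. No other motif was searched. The stretches below are shown because they hold the matches, or, for Ifit2, the same stretch with none. Capitals mark the matches, and each run is read 5′ to 3′ on the strand of its gene.
Ifit3: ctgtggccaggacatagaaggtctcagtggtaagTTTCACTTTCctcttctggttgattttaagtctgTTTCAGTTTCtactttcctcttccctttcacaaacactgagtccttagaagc
Ifit1: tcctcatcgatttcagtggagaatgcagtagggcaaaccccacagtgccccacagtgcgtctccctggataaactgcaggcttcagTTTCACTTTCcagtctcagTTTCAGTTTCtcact
Ifit1bl1: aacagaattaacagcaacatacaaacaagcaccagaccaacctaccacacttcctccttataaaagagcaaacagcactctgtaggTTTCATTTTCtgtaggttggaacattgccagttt
Ifit2: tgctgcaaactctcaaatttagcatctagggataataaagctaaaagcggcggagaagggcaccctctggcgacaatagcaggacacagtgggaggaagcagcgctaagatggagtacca
These are chr19:34583339-34583458 (plus) for Ifit3, chr19:34640699-34640818 (plus) for Ifit1, chr19:34602039-34602158 (minus) for Ifit1bl1 and chr19:34550504-34550623 (plus) for Ifit2. The Ifit3b promoter holds the same 120 letters as Ifit3 with 0 differences, at chr19:34607735-34607854 (plus).

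Ifit3, Ifit3b and Ifit1 each held 2 matches with the same letters, TTTCACTTTC followed by TTTCAGTTTC. Relative to the start they began at positions -156 and -122 in Ifit3, at -188 and -154 in Ifit3b, and at -104 and -85 in Ifit1. The 2 matches of Ifit1 are also the 2 matches in a window of Ifit1bl2, which reads the same bases on the opposite strand. Ifit1bl1 held 1 match in each of its 2 windows. Neither of the 2 windows of Ifit2 held a match, which says only that these letters are not in those windows. So 4 of the 5 members had at least 1 match and 3 had at least 2, while over all 27025 genes with a window 3.99% had at least 1 and 0.266% had at least 2. The windows of Ifit3 and Ifit3b aligned over 260 bases with 1 mismatch, an identity of 99.6% of aligned bases. A further 80 gap bases, from both windows together, are left out of that share.

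The copies also share most of their coding sequence, which bears on how reads could be assigned. Ifit3 and Ifit3b both have 1209 coding bases and differ at 11 of them, an identity of 99.1%. Their longest identical run covers 329 bases, from coding base 829 to 1157. A read lying wholly within the coding sequence must reach differing bases to tell the copies apart. The stretch of 100 coding bases with the most differences, coding bases 189 to 288, is shown with its 4 differing bases in capitals.
Ifit3: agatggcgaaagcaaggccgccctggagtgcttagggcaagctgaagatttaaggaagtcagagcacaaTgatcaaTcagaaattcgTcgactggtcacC
Ifit3b: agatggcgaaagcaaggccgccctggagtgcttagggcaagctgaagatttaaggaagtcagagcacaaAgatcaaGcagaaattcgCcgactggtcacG
They lie at chr19:34587244-34587343 (plus) and chr19:34611614-34611713 (plus) in GRCm38. Over whole transcripts, 51.2% of the 50-base stretches of Ifit3 occur unchanged in Ifit3b, as do 31.7% of its 100-base and 18.5% of its 150-base stretches. Of the 50-base stretches of Ifit3b, 45.0% occur in another annotated gene, nearly all of these in Ifit3. For Ifit1 the share at 50 bases was 7.13%, for Ifit1bl1 6.60% and for Ifit2 0%. Among other pairs of members the coding identity over aligned bases lay between 71.3% and 81.2%. The sources used here do not say how the authors assigned reads that match both copies, so the separate values of Ifit3 and Ifit3b are uncertain and their sum is given beside them.

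Library totals lay between 18006938 and 23940043 counts in Ad-Cre samples and between 15879244 and 17930632 in Ad-GFP samples. The labelled target, Suv39h1, had 25.3, 22.8, 21.6 and 22.6 CPM (counts scaled to the library total) in Ad-Cre samples and 29.0, 27.8, 29.3 and 29.6 CPM in Ad-GFP samples. It was thus at 79.6% of the Ad-GFP level (edgeR's quasi-likelihood test, adjusted p = 3.29e-05), lower in 4 of 4 Ad-Cre libraries. Epithelial transcripts were abundant in samples labelled as fibroblasts. Of the epithelial markers, some were lower and some higher in Ad-Cre samples. Krt8, an epithelial keratin, had 580.7 to 600.4 FPKM (scaled to library total and transcript length) in Ad-Cre samples and 753.4 to 801.0 FPKM in Ad-GFP samples. Epcam, an epithelial adhesion molecule gene, had 182.8 to 187.4 FPKM in Ad-Cre samples and 156.9 to 165.1 FPKM in Ad-GFP samples. The mesenchymal filament gene Vim had 70.9 to 79.8 FPKM in Ad-Cre samples and 113.3 to 119.5 FPKM in Ad-GFP samples, and the collagen gene Col1a1 had 19.9 to 23.7 FPKM in Ad-Cre samples and 33.4 to 37.8 FPKM in Ad-GFP samples. Of 8 fibroblast markers 7 were tested, and Lum was too low to test. In bulk samples, fewer cells of a type and less RNA per cell cannot be told apart.

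Ifit3 had the highest level of the family in FPKM and Ifit3b the largest log2 fold change, both as the reads were split between these copies, which is uncertain. All 5 members passed the filter on low counts, and 3 of them, Ifit3, Ifit3b and Ifit2, were among the genes that edgeR's quasi-likelihood fit called higher in Ad-Cre samples, against 19.8% of all 13337 tested genes called in that direction and 40.3% called in either. None was called lower, against 20.5%. The groups did not overlap for the same 3 genes, against 35.4% of tested genes that did not overlap in either direction and 17.2% that did not and were higher. These calls are of the contrast that chose the family, so the choice of members fixed them in part and nothing is read from them. Values per library follow in the order of replicates 1 to 4.

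Ifit3, the partner of other IFIT proteins in human cells, had 118, 107, 114 and 115 CPM in the Ad-Cre replicates and 58.7, 57.2, 59.1 and 65.4 CPM in the Ad-GFP replicates. The groups stood far apart, with the lowest Ad-Cre library at 107 CPM and the highest Ad-GFP library at 65.4 CPM. The means were 113.5 ± 4.7 CPM in Ad-Cre samples and 60.1 ± 3.6 CPM in Ad-GFP samples (SD, n = 4 each), a log2 fold change of 0.92 ± 0.039 (SE) or 1.89-fold. Of all tested genes, 31 had a log2 fold change at or above that of Ifit3, itself included. This rank, and those of Ifit3b and Ifit2 below, are on the contrast that chose the family. The choice fixed them in part, and nothing is read from them.

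Ifit3b, its near-identical copy, had 43.8, 41.8, 45.7 and 46.0 CPM in the Ad-Cre replicates and 22.5, 17.5, 19.1 and 20.8 CPM in the Ad-GFP replicates. Every Ad-Cre library lay above every Ad-GFP library. The means were 44.3 ± 2.0 CPM in Ad-Cre samples and 19.97 ± 2.2 CPM in Ad-GFP samples, a log2 fold change of 1.15 ± 0.061 (SE) or 2.22-fold, and 12 tested genes had a log2 fold change at or above it, itself included.

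With the counts of both copies added, the level was 162, 149, 160 and 161 CPM in Ad-Cre samples and 81.2, 74.7, 78.2 and 86.2 CPM in Ad-GFP samples. The sum was 1.97-fold higher in Ad-Cre samples, a log2 fold change of 0.98 ± 0.037 (SE), and this value does not depend on how counted reads were split between the copies, though it would miss reads discarded for matching both. Replicate 2 was the lowest Ad-Cre library for each copy and for the sum. Ifit3b made up 27.1%, 28.1%, 28.6% and 28.6% of the summed counts in Ad-Cre replicates 1 to 4. In Ad-GFP replicates 1 to 4 it made up 27.7%, 23.4%, 24.4% and 24.1%. Most counts thus went to Ifit3 in both groups, and Ad-GFP replicate 1 lay inside the Ad-Cre range. Its 95% Wilson interval was 25.5% to 30.1%, which covers counting error only, and the group means were 28.1 ± 0.71% in Ad-Cre samples and 24.9 ± 1.9% in Ad-GFP samples (SD, n = 4 each).

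**Figure D1:**
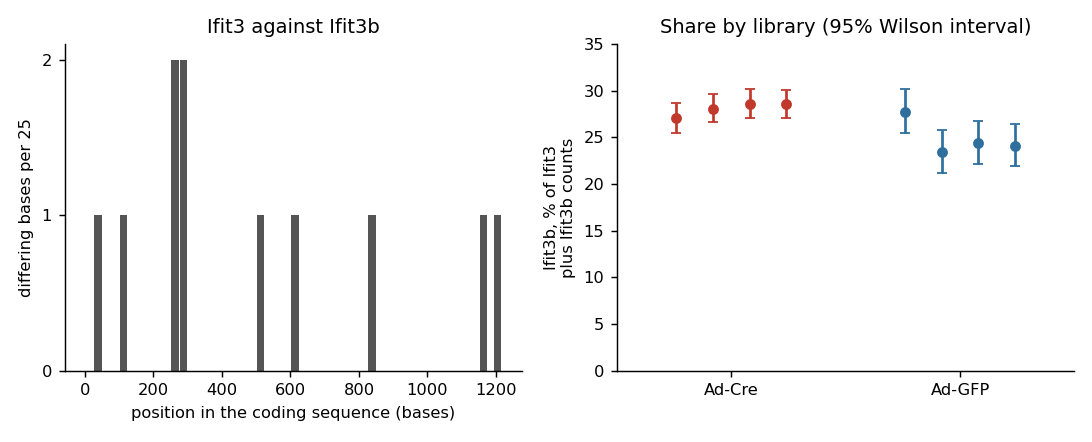
Left, differing bases between the coding sequences of Ifit3 and Ifit3b in consecutive windows of 25 bases (the last one shorter), against position in the coding sequence in bases. Right, Ifit3b as a percentage of Ifit3 plus Ifit3b counts in each library with its 95% Wilson interval, Ad-Cre left of Ad-GFP; the 4 Ad-Cre libraries sit between 27.1% and 28.6% and 1 Ad-GFP library, at 27.7%, falls among them.

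Ifit2, an RNA-binding partner of IFIT3 in human cells, had 34.1, 33.1, 32.8 and 32.6 CPM in the Ad-Cre replicates and 28.7, 22.1, 24.9 and 23.3 CPM in the Ad-GFP replicates. The Ad-Cre libraries were close to each other, and the Ad-GFP libraries, all lower, were more spread. The means were 33.1 ± 0.65 CPM in Ad-Cre samples and 24.7 ± 2.9 CPM in Ad-GFP samples, a log2 fold change of 0.42 ± 0.062 (SE) or 1.34-fold, a size that 343 tested genes reached. The transcript length that follows from comparing counts with FPKM varied for Ifit2 between 3616 and 3818 bases over the libraries, and the annotation gives it transcripts of 3818 and 700 bases. For Ifit3 the implied length stayed between 1744 and 1745 bases. Its only annotated transcript has 1745 bases, so its length could not vary in this way. From the variation for Ifit2, the deposited counts, those of Ifit3 and Ifit3b included, may be rounded estimates rather than plain read counts.

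Ifit1, the sensor of capped RNA without host methylation, had 34, 61, 43 and 69 counts in the Ad-Cre replicates and 45, 51, 33 and 30 counts in the Ad-GFP replicates. On the CPM scale this was 1.90 to 3.13 in Ad-Cre samples and 1.88 to 2.82 in Ad-GFP samples, and the groups overlapped over nearly their whole range. The log2 fold change was 0.07 ± 0.19 (SE), not called at this depth. Ifit1bl1, an Ifit1-like copy on the opposite strand, had 42, 36, 60 and 54 counts in the Ad-Cre replicates and 71, 39, 34 and 51 counts in the Ad-GFP replicates. Its groups overlapped too, at 2.30 ± 0.57 CPM in Ad-Cre samples and 2.86 ± 0.96 CPM in Ad-GFP samples, with a log2 fold change of -0.32 ± 0.22 (SE). Ifit1bl2, the remaining IFIT gene of the table, had 6 to 13 counts in Ad-Cre samples and 10 to 16 in Ad-GFP samples, with a log2 fold change of -0.71 ± 0.32 (SE), and was not called either.

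**Figure D2:**
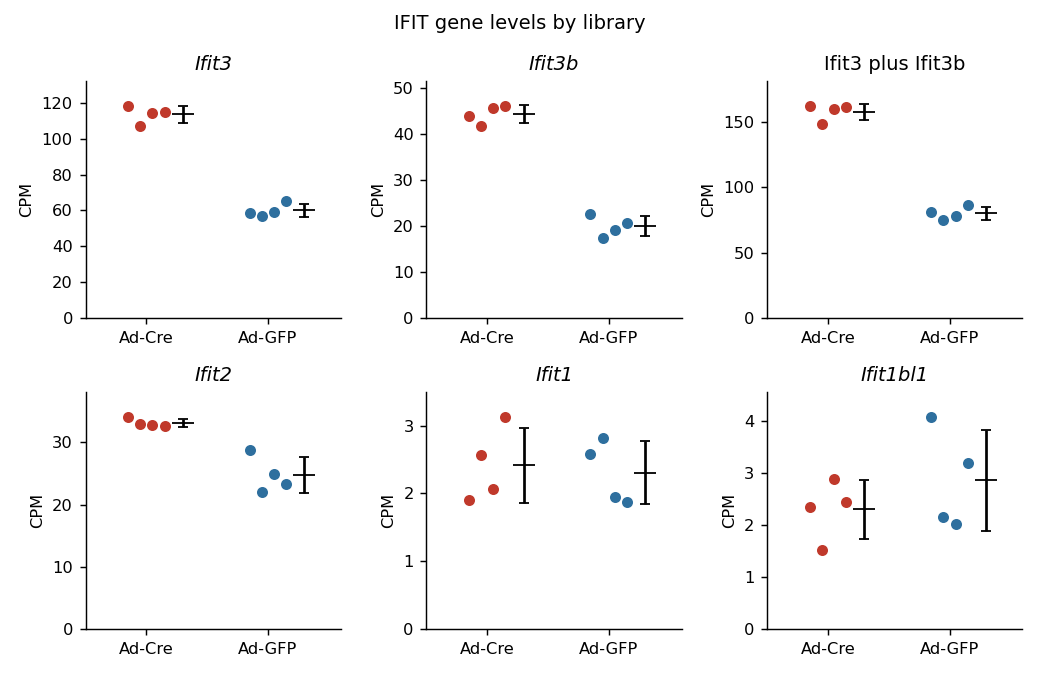
Level in CPM (linear axes from 0) of each member and of Ifit3 plus Ifit3b in the 4 Ad-Cre libraries, left, and the 4 Ad-GFP libraries, right, with group mean and SD as black bars. The groups are apart for Ifit3, Ifit3b, their sum and Ifit2, and overlap for Ifit1 and Ifit1bl1.

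Per transcript length the members spanned a wide range. Ifit3 stood at 64.5 ± 2.6 FPKM in Ad-Cre samples and 34.7 ± 2.1 FPKM in Ad-GFP samples, ahead of Ifit3b at 21.98 ± 0.96 FPKM in Ad-Cre samples and 10.0 ± 1.1 FPKM in Ad-GFP samples. Ifit2 followed at 8.85 ± 0.31 FPKM in Ad-Cre samples and 6.65 ± 0.74 FPKM in Ad-GFP samples. Ifit1bl1 had 1.03 ± 0.26 FPKM in Ad-Cre samples and 1.31 ± 0.44 FPKM in Ad-GFP samples, and Ifit1 0.902 ± 0.21 FPKM in Ad-Cre samples and 0.875 ± 0.18 FPKM in Ad-GFP samples. The first 3 kept this order in every library, with no overlap between them within a group, whereas Ifit1bl1 and Ifit1 overlapped within each group and their order does not exceed the spread between libraries. The family sum was 97.3 ± 3.7 FPKM in Ad-Cre samples and 53.5 ± 3.2 FPKM in Ad-GFP samples. Ifit3 and Ifit3b held 88.7% to 89.2% of it in Ad-Cre samples and 81.1% to 84.9% in Ad-GFP samples. The authors' deposited table gives log2 fold changes of 0.90 for Ifit3, 1.13 for Ifit3b, 0.41 for Ifit2, 0.04 for Ifit1 and -0.34 for Ifit1bl1.

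**Figure D3:**
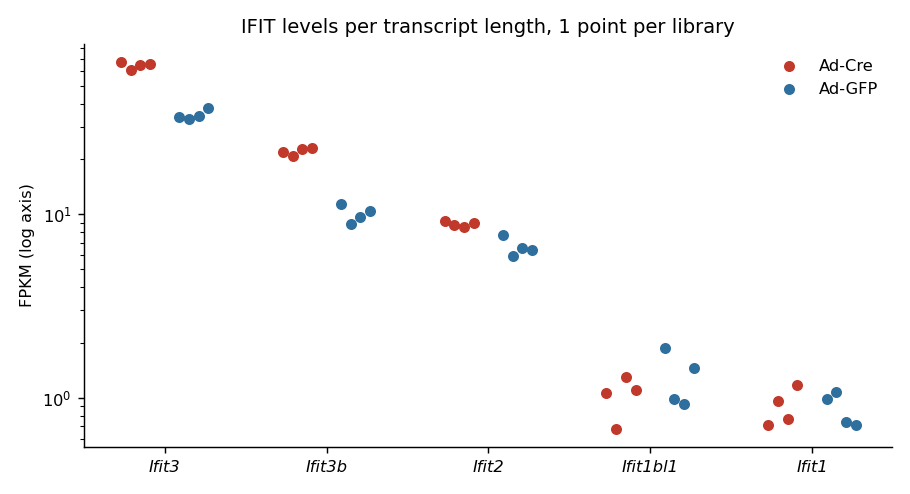
FPKM on a log axis for each member in each library, Ad-Cre points left of Ad-GFP points. Ifit3, Ifit3b and Ifit2 form separate levels within each group, and Ifit1bl1 and Ifit1 lie together near 1 FPKM.

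The difference between the groups in the 3 higher members sat within an interferon system whose other called genes mostly went the other way. This pattern was part of why the family was picked and is given here as a description. Of 101 other genes listed as ligands, receptors, sensors or targets of interferon, 84 were tested. Of these, 4 rose and 35 fell in Ad-Cre samples, against 19.8% and 20.5% of all tested genes called higher and lower. Their median log2 fold change was -0.15, against 0.004 over all tested genes.

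None of the 11 interferon ligand genes was high enough to test, and 8 of them, among these Ifnb1 (interferon beta) and Ifng (interferon gamma), had 0 counts in every library, which allows up to 3 counts, or 0.126 to 0.168 CPM in Ad-Cre libraries and 0.166 to 0.188 CPM in Ad-GFP libraries, for counting error only. The 11 together reached at most 0.112 CPM in any Ad-Cre library and 0 CPM in the Ad-GFP libraries. Receptors and signalling comprised 18 genes, of which 2 rose and 6 fell, at a median log2 fold change of -0.05. Ifnar1, a chain of the type I interferon receptor, was at 119.0 ± 2.2 CPM in Ad-Cre samples and 108.7 ± 1.6 CPM in Ad-GFP samples, and the receptor kinase gene Jak1 at 225.6 ± 5.4 CPM in Ad-Cre samples and 206.8 ± 3.6 CPM in Ad-GFP samples. Ifngr1, a chain of the interferon gamma receptor, had 152.7 ± 4.4 CPM in Ad-Cre samples and 160.9 ± 2.8 CPM in Ad-GFP samples, a small fall that lost its call without Ad-Cre replicate 4 (log2 fold change -0.06), Ad-GFP replicate 2 or Ad-GFP replicate 3 (-0.07 each). The largest falls were in Irf8, a transcription factor of myeloid cells, with 2.66 ± 0.36 CPM in Ad-Cre samples and 5.23 ± 0.57 CPM in Ad-GFP samples, and in Usp18, which removes Isg15 from proteins and dampens receptor signalling, with 3.46 ± 0.31 CPM in Ad-Cre samples and 5.68 ± 1.1 CPM in Ad-GFP samples.

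Among 12 sensors of nucleic acids 1 rose and 0 fell by edgeR (median log2 fold change -0.03). The gene that rose was Tlr3, the endosomal receptor of double-stranded RNA, at 89.7 ± 3.1 CPM in Ad-Cre samples and 76.3 ± 0.93 CPM in Ad-GFP samples. Mavs, the mitochondrial adaptor of cytoplasmic RNA sensors, had 76.0 ± 2.0 CPM in Ad-Cre samples and 72.3 ± 2.9 CPM in Ad-GFP samples and was not called, but was called higher without Ad-GFP replicate 2 (log2 fold change 0.10). At an unadjusted p under 0.05, 0 sensors were lower by edgeR. With DESeq2, 1 sensor was called higher and 0 lower. The numbers were 2 and 1 with limma on log2(FPKM + 1).

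Antiviral effector genes, which like the IFIT genes are targets of interferon, leaned down. Of 47 listed, 42 were tested, 0 rose and 24 fell by edgeR (median log2 fold change -0.18). At an unadjusted p under 0.05, 1 was higher, while DESeq2 and limma on log2(FPKM + 1) called 0 higher and 21 and 17 lower. Oasl1, a relative of the oligoadenylate synthetases, had 2.69, 2.36, 2.11 and 2.54 CPM in the Ad-Cre replicates and 5.79, 5.75, 6.56 and 6.07 CPM in the Ad-GFP replicates. Its groups did not overlap, and its log2 fold change of -1.32 ± 0.13 (SE) was opposite in sign to that of Ifit3b and, in the main fit, larger in size. Settings other than leaving out a library gave -1.34 to -0.85 for Oasl1 and 0.98 to 1.17 for Ifit3b, so that order did not hold in all. Xaf1, a target of interferon linked to cell death, fell too, with 1.16 ± 0.27 CPM in Ad-Cre samples and 2.08 ± 0.43 CPM in Ad-GFP samples. The RNA-editing enzyme gene Adar fell to 78.3 ± 3.1 CPM in Ad-Cre samples, against 84.7 ± 4.9 CPM in Ad-GFP samples, with overlapping groups, and lost its call without Ad-Cre replicate 2 (log2 fold change -0.10), Ad-GFP replicate 1 (-0.10) or Ad-GFP replicate 4 (-0.08). Samd9l, a restriction factor, had 95.4 ± 1.4 CPM in Ad-Cre samples and 99.7 ± 2.1 CPM in Ad-GFP samples and was not called. Without Ad-GFP replicate 1, 16 effectors were called lower. The summed level of this list was 817.7 to 836.0 CPM in Ad-Cre libraries and 908.2 to 957.8 CPM in Ad-GFP libraries. Other lists did not separate downward in this way. Receptors and signalling summed to 899.7 to 921.9 CPM in Ad-Cre libraries and 915.3 to 936.3 CPM in Ad-GFP libraries. Sensors of nucleic acids summed to 393.6 to 406.9 CPM in Ad-Cre libraries and 372.9 to 393.6 CPM in Ad-GFP libraries. Guanylate-binding proteins and immunity-related GTPases summed to 224.2 to 234.2 CPM in Ad-Cre libraries and 224.9 to 244.8 CPM in Ad-GFP libraries.

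Guanylate-binding proteins and immunity-related GTPases act on the membranes around intracellular pathogens. With 12 of their genes tested, 1 rose and 5 fell, at a median log2 fold change of -0.33. With DESeq2, 0 were called higher and 5 lower. The numbers were 0 and 3 with limma on log2(FPKM + 1). Gbp9 fell to 17.1 ± 1.2 CPM in Ad-Cre samples, against 21.9 ± 1.5 CPM in Ad-GFP samples. Gbp4 had 0.881 ± 0.12 CPM in Ad-Cre samples and 1.71 ± 0.24 CPM in Ad-GFP samples and Tgtp2, called lower as well, had 0.929 ± 0.33 CPM in Ad-Cre samples and 1.62 ± 0.41 CPM in Ad-GFP samples. Tgtp2 lost its call without Ad-Cre replicate 2 (log2 fold change -0.69), Ad-Cre replicate 3 (-0.68) or Ad-GFP replicate 1 (-0.64). Irgm1, the only riser, had 158.0 ± 4.9 CPM in Ad-Cre samples and 149.5 ± 6.5 CPM in Ad-GFP samples with overlapping groups, and it lost its call without Ad-Cre replicate 3 or 4 or without Ad-GFP replicate 2, 3 or 4, at log2 fold changes of 0.05 to 0.09. It was not called with upper-quartile factors, DESeq2 or limma on FPKM either. The motif of the IFIT promoters was present in 40.0% of the 65 tested interferon genes with a window and in 45.8% of the 24 called lower.

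**Figure D4:**
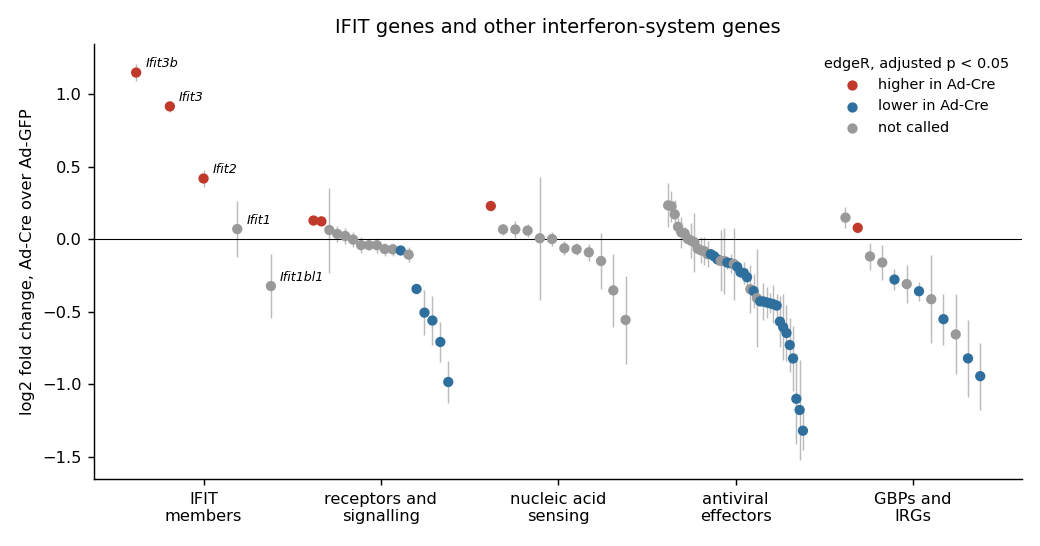
Log2 fold change of Ad-Cre over Ad-GFP with its standard error for the 5 IFIT members and the tested genes of 4 interferon lists (GBPs, guanylate-binding proteins; IRGs, immunity-related GTPases), sorted within each list and coloured by edgeR's call. Ifit3b and Ifit3 lie above every other gene plotted, and the effector list reaches down to Oasl1 at -1.32.

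Markers of cell types also differed between the groups, where 19.8% of all tested genes were called higher and 20.5% lower. Of 8 endothelial markers, 8 fell, with a summed level of 62.7 to 71.1 CPM in Ad-Cre libraries and 125.5 to 134.2 CPM in Ad-GFP libraries. The markers of macrophages and leukocytes summed to 183.6 to 194.0 CPM in Ad-Cre libraries and 199.3 to 226.7 CPM in Ad-GFP libraries, with 4 of 6 tested ones falling and 0 rising. In that list of 9 genes Cd3e and Siglech were among those at 0 in every library. Of 7 tested fibroblast markers, 4 fell and 0 rose, with sums of 466.3 to 539.5 CPM in Ad-Cre libraries and 723.5 to 771.1 CPM in Ad-GFP libraries. Of 7 epithelial markers 3 rose and 3 fell, with sums of 3585 to 3650 CPM in Ad-Cre libraries and 3987 to 4161 CPM in Ad-GFP libraries. The sum leans on the most abundant marker, Krt8, which fell, with means of 1168 CPM in Ad-Cre samples and 1504 CPM in Ad-GFP samples. Epcam, among those that rose, had means of 326.2 CPM in Ad-Cre samples and 276.5 CPM in Ad-GFP samples. The sum thus gives no common direction of this list. At an unadjusted p under 0.05, edgeR had 0 endothelial, macrophage and leukocyte, or fibroblast markers higher in Ad-Cre samples, and DESeq2 and limma on log2(FPKM + 1) likewise called 0. The part of these cell types in the IFIT and interferon values was not tested.

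The neighbours of the cluster, whose position the choice of members did not use, moved in both directions. Within 500 kb of the outermost members 30 other genes are annotated, of which 12 are in the table and 9 were tested: 2 rose, 3 fell and 4 were not called, against 19.8% and 20.5% of all tested genes called higher and lower. Within the cluster itself Ifit1bl1, between Ifit3 and Ifit3b, and Ifit1bl2, between Ifit3b and Ifit1, were among the genes not called.

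On the side of Ifit1, Slc16a12, a monocarboxylate transporter gene, had 8.62, 9.59, 9.13 and 8.70 CPM in the Ad-Cre replicates and 6.59, 5.64, 8.04 and 5.82 CPM in the Ad-GFP replicates. The groups did not overlap, with a log2 fold change of 0.47 ± 0.11 (SE) and edgeR's adjusted p = 0.00104. Pank1, a pantothenate kinase gene of coenzyme A synthesis, had 17.5 to 20.5 CPM in Ad-Cre libraries and 13.5 to 16.1 CPM in Ad-GFP libraries, and rose by a log2 fold change of 0.30 ± 0.071 (SE; edgeR's adjusted p = 0.0013). Kif20b, a mitotic kinesin gene, had 9.45 ± 0.83 CPM in Ad-Cre samples and 10.9 ± 0.34 CPM in Ad-GFP samples and was not called, but was called lower without Ad-Cre replicate 3 (-0.27). On the side of Ifit2, Lipa, the lysosomal acid lipase gene, and Ch25h, the cholesterol 25-hydroxylase gene, itself an interferon target, were not called, with log2 fold changes of 0.12 ± 0.054 and -0.52 ± 0.24 (SE). Lipa was called higher without Ad-Cre replicate 2 (0.15) or Ad-GFP replicate 3 (0.16), and Ch25h was called lower without Ad-GFP replicate 2 (-0.65). Further out 3 genes fell. Acta2, the smooth muscle actin of myofibroblasts, had 404.0, 420.4, 415.7 and 448.4 CPM in the Ad-Cre replicates and 780.7, 791.5, 809.3 and 803.7 CPM in the Ad-GFP replicates, far apart, with a log2 fold change of -0.92 ± 0.025 (adjusted p = 1.32e-19). Stambpl1, a deubiquitinase gene beside it, had a log2 fold change of -0.50 ± 0.079 (adjusted p = 1.31e-05). Fas, the death receptor gene, had -0.48 ± 0.15 (adjusted p = 0.0127) and lost its call without Ad-Cre replicate 2, at -0.40.

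**Figure D5:**
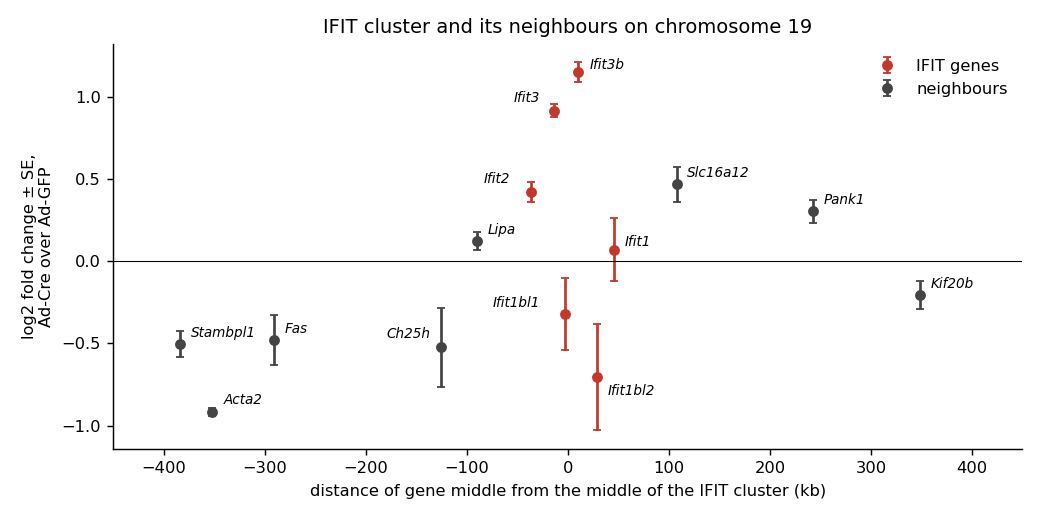
Log2 fold change of Ad-Cre over Ad-GFP with its standard error, against the distance in kb of each gene's middle from the middle of the IFIT cluster, for the 6 IFIT genes and the 8 other tested neighbours. Within the cluster values run from Ifit3b at 1.15 to Ifit1bl2 at -0.71, but the genes with negative values there, Ifit1bl1 and Ifit1bl2, were not called. On its flanks, genes of both signs were called.

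The genes whose log2 CPM followed Ifit3 most closely were sought among 12713 genes that averaged 1 CPM or more, by Pearson's coefficient as a measure of likeness over the 8 samples. The 5 highest, all at 0.997 or above, were Nf2, the merlin tumour suppressor gene, Thbs1 (thrombospondin 1), Fst (follistatin, an activin antagonist), Aqp1, a water channel gene, and Tns1, a focal adhesion protein gene. All 5 were higher in Ad-Cre samples, as with Nf2 at 126.2 ± 2.6 CPM in Ad-Cre samples and 100.8 ± 1.6 CPM in Ad-GFP samples, so this likeness mostly repeats the difference between groups. Ifit3b came 88th by this measure, at 0.986, and Ifit2 1149th, at 0.888. With each group's mean taken out, the closest genes were Rita1, Eif4g3, Trappc12, Afap1l1 and Sec24b, between 0.963 and 0.978. Each of these 5 had its lowest Ad-Cre value in replicate 2 and its highest Ad-GFP value in replicate 4, the libraries where Ifit3 too was lowest and highest. By that measure the near-identical copies followed each other less closely, at 0.447, with Ifit3b 2652nd in the list. The uncertain split of reads between the copies enters this value, and its part was not tested. Ifit3b was nearer to Ifit1bl1, at 0.874, and to Ifit2, at 0.717, than to Ifit3, though Ifit1bl1 had only 34 to 71 counts per library. These coefficients rest on 8 libraries that share their scaling and are descriptions only.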

How the data were processed

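RNA from 8 samples was sequenced, 4 per group. The authors deposited 1 table with whole-number counts per gene and library and FPKM values of the same libraries. Per the file headers it also holds group mean FPKM, the authors' log2 fold changes, and p-values with an FDR. The authors' p-values come from an unnamed test and were not used. Per the submitters' processing notes the builds were GRCm38 and mm10. Which aligner, counter, strand setting and annotation were used is not given in the sources here. The members and gene lists were chosen with earlier results of these data known.

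The deposited counts entered edgeR 4.0.16 (R 4.3.3) unchanged. After filterByExpr 13337 genes remained, TMM factors were 0.992 to 1.01, and the test of Ad-Cre against Ad-GFP was the two-sided quasi-likelihood F-test with Benjamini-Hochberg adjustment over all tested genes at 0.05. A gene is called, or said to rise or fall, only past that threshold. SEs follow from the F statistic as |log2 fold change| / √F, and SDs are over libraries. The fit was also run on simulated counts in which 200 genes changed. In the data 40.3% of tested genes were called, so the simulation does not speak for this setting. Coordinates and transcripts came from GENCODE M21, promoters from RefSeq. Of the interferon genes listed, Mnda was not used here. Some items are not reported here. Mitochondrially encoded genes took 7.59% to 8.00% of counts, and 6 of 9 of them rose and 1 fell, while limma on FPKM called 2 higher, or 1 higher and 0 lower without a filter.

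Text names the members and further Ifit genes, Suv39h1, in each interferon list the 2 most abundant genes and the 2 called rises and falls of largest size with a mean of at least 1 CPM, neighbours with at least 1 CPM, and the 5 genes most like Ifit3 by each measure. Krt8, Epcam, Vim, Col1a1 and Lum were added for their roles after values were seen. Alternatives were RLE and upper-quartile factors, no filter, a filter of 1 CPM, DESeq2 1.42.0, a replicate block, omission of each library in turn, thinning to the smallest library, summing Ifit3 and Ifit3b, and limma 3.58.1 on FPKM with pseudocounts of 1 and 0.1 before the log2, for genes averaging 1 FPKM or more, or all genes above 0.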

Additional observations from a re-analysis of the deposited data

Results flagged for a closer look

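In 6 of 84 groups of 4 libraries, the highest or lowest library stood apart from the others by a gap above Dixon's 95% critical value. Chance gives about 1 in 20 for independent groups, which these are not, so nothing is read from the number flagged. The sum contains Ifit3 and Ifit3b, and Trappc12, Fst and Afap1l1 were named for their likeness to Ifit3 over these same libraries. For Ifit3 plus Ifit3b, Ad-Cre replicate 2 was lowest at 148.7 CPM, with the others at 159.8 to 161.8 CPM. Trappc12 was lowest in the same library, at 41.0 CPM. Ad-GFP replicate 4 was highest for Fst, at 131.1 CPM, and for Afap1l1, at 17.1 CPM. Gbp9 was highest at 18.9 CPM in Ad-Cre replicate 3, and Stambpl1 was highest at 12.7 CPM in Ad-GFP replicate 1.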

How the results depend on the processing

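Under every alternative run, Ifit3, Ifit3b and Ifit2 stayed higher in Ad-Cre samples. Leaving out 1 library at a time gave log2 fold changes of 0.89 to 0.96 for Ifit3, 1.09 to 1.22 for Ifit3b and 0.37 to 0.50 for Ifit2, and -0.08 to 0.19 for Ifit1 and -0.46 to -0.10 for Ifit1bl1. The other settings gave 0.88 to 0.98 for Ifit3, 0.98 to 1.17 for Ifit3b and 0.37 to 0.43 for Ifit2. The value of 0.98 is that of both copies summed, the only setting that moved Ifit3b by more than its spread. The genes called higher, 2641 beside 2729 lower, numbered 1400 (2130 lower) with limma on log2(FPKM + 1), 1393 (2127 lower) on log2(FPKM + 0.1) and 1272 (2341 lower) on log2(FPKM + 0.1) without a filter, where 1 neighbour rather than 2 was called higher. The cause was not tested. Without 1 library, 26 to 35 interferon genes were called lower and 3 to 4 higher, and 16 to 24 effectors lower. Replicate numbers are shared between groups, but the labels state no pairing, and same-numbered samples deviated together with coefficients of only -0.01 to 0.10. With the number as a block, 2654 genes were called higher and 2736 lower, and Ifit3 had 0.92, Ifit3b 1.15 and Ifit2 0.43. Ifit1, under 1 FPKM, has no value under the FPKM filter, and its depth limits what can be said of it.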
